A study of Mus musculus with 4 samples.

Results

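Genes of autophagy and mitophagy were followed in ILC2, innate lymphocytes of tissues with a type 2 cytokine profile, taken from the pancreatic islets of fed and fasted mice. The 10 genes were chosen by symbol, with earlier results of these data known: Ulk1, Becn1, Wipi1, Map1lc3a, Map1lc3b, Gabarapl1, Sqstm1, Bnip3, Bnip3l and Tfeb. All 10 were among the 15835 genes of the count table, and 8 of them were among the 7700 genes with enough counts to be tested. Every library came from mice of the C57BL/6j genotype, with no further allele or agent in the labels. The fed group, whose columns are named control, and the fasted group were taken as 4 libraries each, numbered 1, 3, 4 and 5. A further column of each treatment was not used. Age and length of the fast are not stated. Whether each library is a separate animal is not stated, and p-values here measure no more than the spread among these libraries, which may be technical. The study's title names fasting and the function of pancreatic ILC2, and the comparison asked here is whether RNA levels of these genes differed between the groups.

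Autophagy encloses cytoplasm in a double membrane, the autophagosome, and delivers it to lysosomes for breakdown. It supplies amino acids and lipids when nutrients are short. The kinase ULK1 starts the process and is held back by mTORC1 and activated by AMPK, the nutrient and energy sensors of the cell. A lipid kinase complex that contains Beclin 1 then marks the membrane, ubiquitin-like proteins of the ATG8 family are attached to it, and cargo receptors tie protein aggregates or mitochondria to these proteins. Much of this control acts on proteins, so RNA levels do not report how much cargo is broken down.

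Total counts per library ran from 1797504 to 25252366. The labelled cell type was checked against 16 ILC2 markers, all of them in the table. The lineage factor Gata3 had at least 169 CPM and the receptor Klrg1 at least 249.9 CPM in each library. Rora, another ILC2 factor, had only 6 counts in all. For CPM, counts were scaled by the library total multiplied by a TMM factor of that library. These factors ran from 0.538 (fed library 4) to 2.11 (fasted library 1), so CPM values are not shares of a library's counts. Ulk1 in fasted library 1, for example, was at 55.2 CPM with the factor and at 116.6 CPM by library total alone. RNA of acinar cells, the digestive enzyme cells around the islets, was abundant: 21 acinar marker genes took from 42.7% to 73.9% of counts in the fed libraries, 69.2% and 70.9% in fasted libraries 4 and 5, but only 3.03% and 3.38% in fasted libraries 1 and 3. Autophagy genes are used by most cell types, acinar cells included, and in this bulk RNA the members' levels cannot be assigned to ILC2 alone. Fewer cells of a type and less RNA per cell cannot be told apart either.

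A single promoter match is shown because it was the one motif match among the members searched. No promoter window was found for Map1lc3a, Becn1 and Bnip3l. Windows from 250 bases before to 50 after the start were at hand for the other 7 of the 10 members (RefSeq, GRCm38.p6). They were searched on both strands for TCACGTGA, the core bound by TFEB, for CACGTG, the E-box it contains, for ACGTG, the hypoxia response core that lies within the E-box, and for TGTTTAC, a FOXO motif. In all, 0.974% of 32851 windows held the TFEB core, 7.15% the E-box, 19.6% the hypoxia response core and 3.65% the FOXO motif. Among the 7 members searched, Bnip3 alone had a match, in which the E-box and the hypoxia response core coincide 108 bases before the start. It lies at chr7:138909587-138909636 on the minus strand, printed 5′ to 3′ with the E-box in capitals.
Bnip3 promoter: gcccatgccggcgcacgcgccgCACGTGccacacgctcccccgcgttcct

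Ulk1, the gene of the initiating kinase, had the largest log2 fold change of the 8 tested members. Its fitted level was 2.00-fold higher in fasted libraries, and that of the ATG8 gene Map1lc3b 1.38-fold higher. The fasted mean was 0.970 times the fed mean for the mitophagy receptor gene Bnip3, 1.04 times for its relative Bnip3l and 0.933 times for the transcription factor gene Tfeb. None of the 8 tested members passed after adjustment over all tested genes (edgeR quasi-likelihood test, Benjamini-Hochberg adjusted p under 0.05), and 0% of the 7700 genes did. At an unadjusted p under 0.05 there were 2 members, Ulk1 and Map1lc3b, both higher, beside 4.39% of all tested genes. These were 338 genes, 2.77% higher and 1.62% lower, and 535 genes with the column number as a replicate block. The members were chosen with earlier results of these data known, so this is not an independent comparison and shows no excess. DESeq2 called 8 genes and limma-voom called 0, with no member among them. Power was limited when changes were planted in simulated counts for these 7700 genes and this comparison. In edgeR 41% of those of 4-fold and 2% of those of 2-fold passed the adjusted threshold. Of the genes called there, 1 of 44 in edgeR, 18 of 83 in DESeq2 and 1 of 28 in limma-voom held no planted change.

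**Figure D1:**
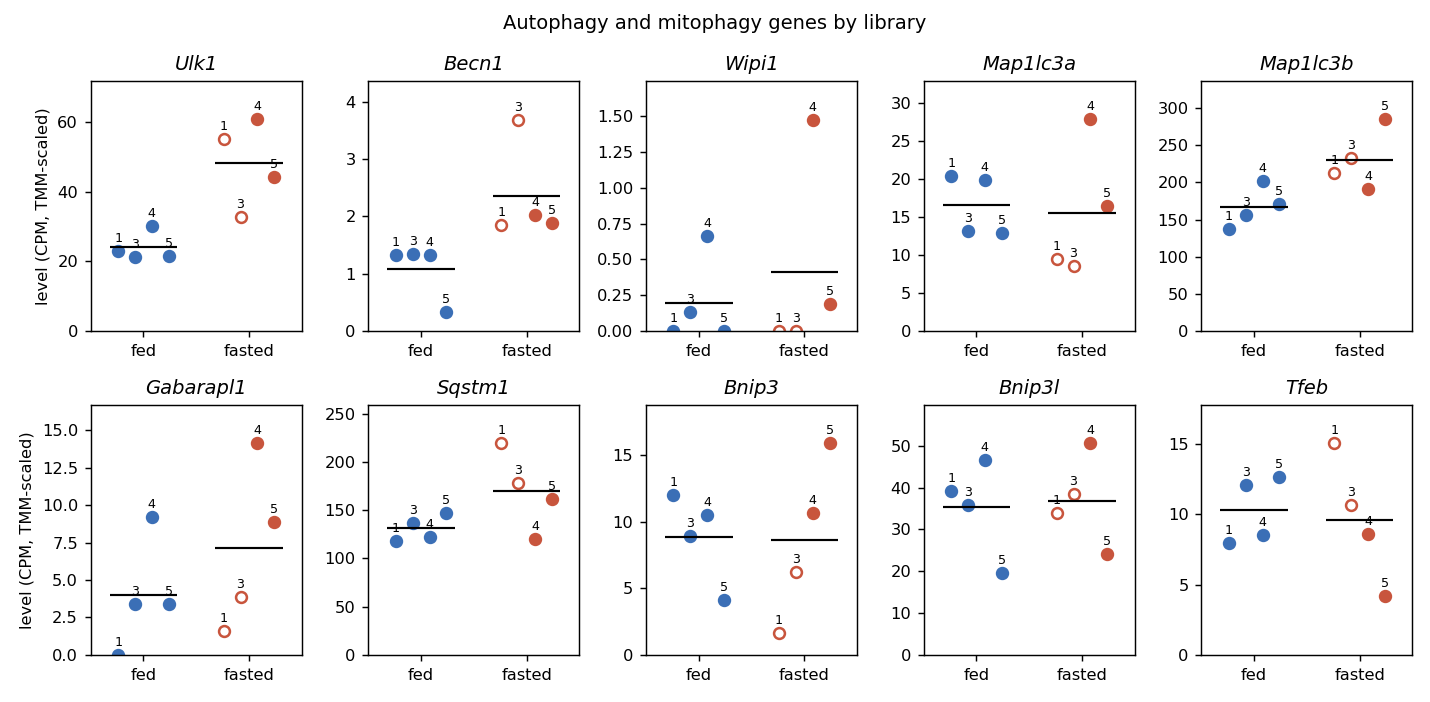
Level of each of the 10 genes in CPM after TMM scaling (linear axes from 0), by library; numbers are library numbers, bars are group means, and open circles are fasted libraries 1 and 3, whose acinar marker share was 3.03% and 3.38%. For Ulk1 and for the sparsely counted Becn1, each fasted library lies above each fed library; the other 8 genes overlap.

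Ulk1 encodes the kinase that opens autophagy. Its level was 23.1, 21.3, 30.3 and 21.5 CPM in fed libraries 1, 3, 4 and 5 and 55.2, 32.8, 60.8 and 44.3 CPM in fasted libraries 1, 3, 4 and 5. The lowest fasted library, 3, was above the highest fed library, 4. The means were 24.04 ± 4.23 CPM (fed) and 48.3 ± 12.4 CPM (fasted; SD, n = 4), for a log2 fold change of 1.00 ± 0.27 (SE; 95% interval 0.41 to 1.59; edgeR, unadjusted p = 0.0032, Benjamini-Hochberg adjusted p = 0.69). Without overlap, fasted exceeds fed however the libraries are matched, so matching by number adds no further support. The differences were 1.24, 0.61, 0.99 and 1.02 on the log2 scale for numbers 1, 3, 4 and 5. Over the alternatives the log2 fold change ran from 0.86 to 1.52 and the adjusted p from 0.26 to 1.00. With both acinar-poor fasted libraries left out it was 1.13, and with acinar RNA as a covariate 1.11. Groups without overlap were found for 3.51% of all tested genes in either direction and for 2.19% with fasted higher, so Ulk1 is 1 of 169 such genes. Markers of other immune cells are given on the same scale. The 7 T cell markers in the table summed to between 40.6 and 57.4 CPM in fed and between 65.3 and 80.8 CPM in fasted libraries, without overlap. Most of that sum was Cd3g (1820 counts over the 8 libraries) and Lef1 (629 counts). Cd3e had 150 counts, at 0.888, 2.96, 0 and 2.73 CPM in fed and 7.66, 1.55, 6.24 and 8.13 CPM in fasted libraries 1, 3, 4 and 5. Cd3d, Cd8a, Cd8b1 and Cd5 had 20, 11, 6 and 3 counts. The 5 B cell markers overlapped, between 0.673 and 6.48 CPM in fed and between 3.10 and 11.9 CPM in fasted libraries. The 12 myeloid markers summed to 240 CPM in fasted library 1 and to between 29.9 and 59.6 CPM in the other 7 libraries. In fasted library 1 Cd74 was at 148, C1qb at 37.4, Lyz1 at 30.9, Csf1r at 11.6 and C1qc at 8.59 CPM. Each of these was at its highest of the 8 libraries there, whereas Emr1 and Itgam were at 0. Without fasted library 1 the log2 fold change of Ulk1 was 0.93. The part of the T cell and myeloid markers in the Ulk1 difference was not tested. Ulk1 lies on chromosome 5 at 110784488 to 110810097 (mm10), with 1656 counts over the 8 libraries.

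Becn1 and Wipi1, which act just after ULK1, were too sparsely counted to be tested. Becn1 encodes Beclin 1, a subunit of the lipid kinase complex that produces PI3P, and had 3, 10, 18 and 1 counts in fed libraries 1, 3, 4 and 5 and 8, 19, 11 and 10 in the fasted libraries of those numbers. In CPM this was 1.33, 1.35, 1.33 and 0.342 in fed and 1.86, 3.68, 2.02 and 1.89 in fasted libraries, without overlap. Fitted without a filter on low counts, its log2 fold change was 1.08 with a 95% interval from -0.94 to 3.11 (edgeR, Benjamini-Hochberg adjusted p = 0.75). The level of fed library 5 rests on a single count, and the share of groups without overlap was not computed for genes this sparsely counted. Wipi1 encodes a protein that binds PI3P on the growing membrane and had 10 counts in fed and 9 in fasted libraries, 9 of them in fed library 4 and 8 in fasted library 4. It was at 0 in fed libraries 1 and 5 and fasted libraries 1 and 3, where 3 counts, the limit a count of 0 allows, correspond to 1.33, 1.02, 0.696 and 0.582 CPM. These limits cover counting error. A difference in Wipi1 was not detectable at this depth.

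The ATG8 family genes encode the small proteins attached to autophagosome membranes, and 3 of the members belong to it. Map1lc3b, the gene of the widely used autophagosome marker LC3B, was at 137, 157, 202 and 170.5 CPM in fed libraries 1, 3, 4 and 5 and at 213, 232, 191 and 285 CPM in fasted libraries. The groups overlapped through number 4, where the fed library was the higher. Its log2 fold change was 0.47 ± 0.21 (SE; 95% interval 0.00 to 0.93; edgeR, unadjusted p = 0.048, Benjamini-Hochberg adjusted p = 1.00), with means of 167 ± 27.6 and 230.3 ± 40.2 CPM. It stayed positive under all 20 alternatives, from 0.35 to 1.02, with an unadjusted p under 0.05 in 7 of them.

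Map1lc3a, which encodes the related LC3A, was at 20.4, 13.2, 19.95 and 13.0 CPM in fed and 9.52, 8.53, 27.9 and 16.5 CPM in fasted libraries 1, 3, 4 and 5. Fasted libraries 1 and 3 were below each fed library and fasted library 4 above each of them. The log2 fold change was -0.09 ± 0.41 (SE; 95% interval -0.98 to 0.80), and with the acinar-poor fasted libraries left out 0.42. Gabarapl1, an ATG8 gene known as a target of FOXO factors, had 0, 3.37, 9.20 and 3.42 CPM in fed and 1.62, 3.88, 14.1 and 8.89 CPM in fasted libraries. Fasted exceeded fed within each number, but the 8 values overlapped widely, and the log2 fold change of 0.75 ± 0.87 had a 95% interval from -1.16 to 2.67. Fed library 1, at 0 of its 1797504 counts, allows up to 1.33 CPM. Without fed library 4 the log2 fold change was 1.57, and without fasted library 4 it was 0.18; with both acinar-poor fasted libraries left out it was 1.45.

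The other ATG8 genes of the table are no members and are given for comparison. Gabarap had means of 336 ± 60.0 CPM (fed) and 351 ± 99.2 CPM (fasted), and Gabarapl2 at 101 ± 13.3 and 113 ± 20.6 CPM (SD, n = 4). Their log2 fold changes were 0.06 ± 0.24 and 0.17 ± 0.21 (SE), turning to -0.14 for Gabarap without fasted library 5 and to -0.07 for Gabarapl2 with both acinar-poor fasted libraries left out. Of the 5 ATG8 genes, 4 had positive and 1 a negative log2 fold change, and none passed after adjustment.

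Sqstm1 encodes p62, a receptor that ties ubiquitin-tagged cargo to ATG8 proteins and is itself broken down with it. Its level was 119, 137, 123 and 148 CPM in fed and 219.8, 178, 120.5 and 162 CPM in fasted libraries 1, 3, 4 and 5. Fasted libraries 1, 3 and 5 lay above each fed library, and fasted library 4 between fed libraries 1 and 4. The means of 131 ± 13.3 and 170.1 ± 41.1 CPM gave a log2 fold change of 0.38 ± 0.22 (SE; 95% interval -0.12 to 0.87; edgeR, unadjusted p = 0.12, Benjamini-Hochberg adjusted p = 1.00). The level was 199 CPM on average in the fasted libraries poor in acinar RNA and 141 CPM in the others, and with the former left out the log2 fold change was 0.10. The highest level was in fasted library 1, where the myeloid markers also peaked, and without that library alone the log2 fold change was 0.22. In fasted library 3, second at 178 CPM, the myeloid markers summed to 29.9 CPM, their lowest. Whether myeloid or acinar RNA had a part in these levels was not tested.

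**Figure D2:**
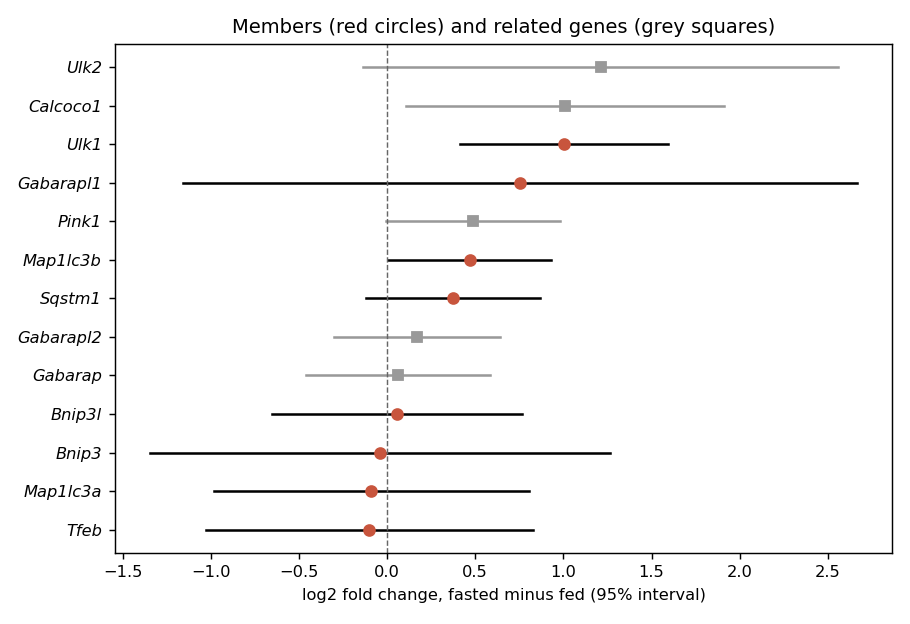
Log2 fold change, fasted minus fed, with its 95% interval from edgeR, for the 8 tested members (red circles) and 5 related genes (grey squares); the dashed line is no difference. The intervals of Ulk1, Calcoco1 and, narrowly, Map1lc3b lie above 0 before adjustment, and those of the other 10 genes include 0.

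The mitophagy receptors Bnip3 and Bnip3l sit in the outer mitochondrial membrane, bind ATG8 proteins and are known for their induction by hypoxia. Bnip3l, whose product is also called NIX, was at 39.1, 35.9, 46.7 and 19.5 CPM in fed and 33.9, 38.6, 50.7 and 24.02 CPM in fasted libraries 1, 3, 4 and 5. In both groups library 4 was the highest and library 5 the lowest. Its log2 fold change was 0.06 ± 0.32 (SE; 95% interval -0.65 to 0.77), which in fold terms runs from 0.636 to 1.70, so these libraries leave differences of that size possible.

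Bnip3 was at 12.0, 8.89, 10.5 and 4.10 CPM in fed and 1.62, 6.20, 10.7 and 15.9 CPM in fasted libraries 1, 3, 4 and 5. Its fasted levels spread more widely than its fed levels, with the highest and the lowest of the 8 libraries both fasted. The mean was 3.91 CPM in fasted libraries 1 and 3 and 13.3 CPM in fasted libraries 4 and 5, and the difference between fasted and fed libraries of 1 number went from -2.56 (number 1) to 1.83 (number 5) on the log2 scale. The log2 fold change was -0.04 ± 0.59 (SE; 95% interval -1.35 to 1.26) and 0.58 with both acinar-poor fasted libraries left out. The part of acinar RNA in this spread was not tested.

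Tfeb encodes the transcription factor that switches on genes of autophagy and lysosomes when mTORC1 is inactive. It was at 7.99, 12.1, 8.54 and 12.6 CPM in fed and 15.1, 10.7, 8.63 and 4.16 CPM in fasted libraries 1, 3, 4 and 5. Again the fasted group held both extremes, library 1, the one high in myeloid markers, the highest and library 5 the lowest. The log2 fold change was -0.10 ± 0.42 (SE, with a 95% interval from -1.03 to 0.83), and without fasted library 1 it was -0.40. Whether myeloid RNA had a part in the level of that library was not tested. TFEB activity is known to be set largely by whether the protein is in the nucleus, which RNA does not measure.

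**Figure D3:**
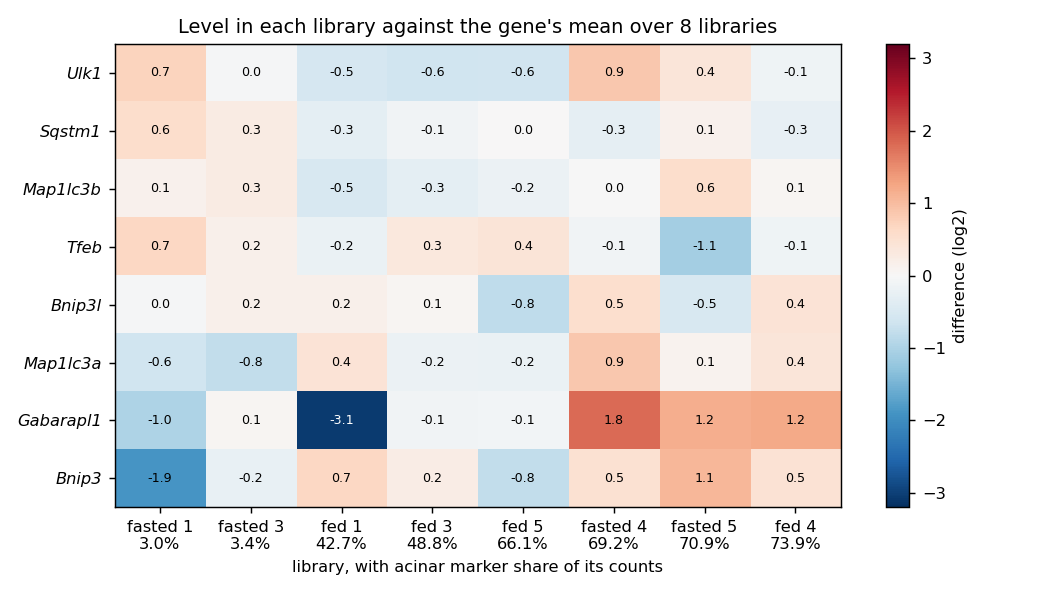
Level of the 8 tested members in each library as the log2 difference from the gene's mean over the 8 libraries (CPM plus 0.5), with libraries ordered by the acinar marker share printed under each. Map1lc3a, Gabarapl1 and Bnip3 were lower in fasted 1 than in fasted 4 and 5, and Sqstm1 and Tfeb higher.

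Levels of the members were also compared between the acinar-poor and the acinar-rich fasted libraries. Map1lc3a, Gabarapl1 and Bnip3 had means of 9.02, 2.75 and 3.91 CPM in the acinar-poor libraries and 22.2, 11.5 and 13.3 CPM in the acinar-rich ones. Sqstm1 and Tfeb were the other way round, at 199 and 12.9 CPM against 141 and 6.40 CPM. Ulk1, Map1lc3b and Bnip3l differed less between them, at 44.0, 223 and 36.2 CPM in the acinar-poor and 52.5, 238 and 37.3 CPM in the acinar-rich libraries. With 2 libraries on each side these are descriptions, and the part of acinar RNA in them was not tested.

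The wider pathway, 97 listed genes from initiation to fusion with lysosomes, members included, showed no called gene. Of its 75 tested genes 48 had positive and 27 negative log2 fold changes, with a median of 0.10, beside 49.8% positive and a median of 0.00 for all tested genes. With library totals in place of TMM, the median of all tested genes moved to 0.51, with 79.9% of genes positive, and the pathway had 89.3% positive with a median of 0.73. An unadjusted p under 0.05 was found for 3 genes, or 4.00%, close to the 4.39% of all tested genes. These were Ulk1, Map1lc3b and Calcoco1, all higher.

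The ULK1 complex had the highest median of the 11 steps. All 4 tested genes of it were positive, with a median log2 fold change of 0.74. Ulk2, which encodes the kinase most like ULK1, was at 1.78, 3.90, 9.13 and 3.76 CPM in fed and 5.57, 9.89, 24.1 and 5.30 CPM in fasted libraries 1, 3, 4 and 5. Fasted was the higher within each number, while the groups overlapped, at a log2 fold change of 1.21 ± 0.61 (SE; edgeR, unadjusted p = 0.074, Benjamini-Hochberg adjusted p = 1.00). With the column number as a block the unadjusted p was 0.0158 (edgeR, Benjamini-Hochberg adjusted p = 0.70) at the same log2 fold change of 1.21, which makes 4 such pathway genes, and without fasted library 4 or fed library 4 the log2 fold change was 0.52 or 1.80. The adaptor subunit Atg13 and the small subunit Atg101 had log2 fold changes of 0.28 ± 0.25 and 0.49 ± 0.49. The scaffold Rb1cc1 had 70 counts and was not tested.

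Among the receptors, Calcoco1, which serves autophagy of the endoplasmic reticulum, had means of 19.8 ± 11.2 CPM (fed) and 39.8 ± 9.50 CPM (fasted). The log2 fold change was 1.01 ± 0.41 (SE; edgeR, unadjusted p = 0.032, Benjamini-Hochberg adjusted p = 1.00). It stayed under the unadjusted threshold in 13 of 20 alternatives. It missed it with the acinar covariate, at a log2 fold change of 0.82, and with both acinar-poor fasted libraries left out, at 0.75. It also missed it without fed library 1 (0.75), fed library 4 (0.88), fasted library 1 (0.87) or fasted library 3 (0.98). For Pink1, the kinase that marks damaged mitochondria for mitophagy, the means were 75.3 ± 2.86 and 105 ± 24.4 CPM. Its log2 fold change was 0.49 ± 0.22, and 0.23 with both acinar-poor fasted libraries left out. Its fasted libraries 1, 3 and 5 exceeded each fed library, and fasted library 4, at 71.2 CPM, was below them all. Of the 8 tested genes for mitophagy receptors and the PINK1 pathway 6 were positive and 2 negative, with a median of 0.07.

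On the side of nutrient sensing, the 8 tested genes of mTORC1 and its inhibitors were split 4 and 4, with a median of 0.00. The pathway genes with the smallest p among negative values were Prkaa1, a catalytic subunit of AMPK, at -1.23 ± 0.83, the mTORC1 inhibitor Tsc1 at -0.85 ± 0.74, the lipid scramblase gene Tmem41b at -0.56 ± 0.54, Mtor itself at -0.54 ± 0.61 and the lysosomal membrane protein Lamp1 at -0.21 ± 0.25 (log2 fold change ± SE). Every one of these had an interval that included 0. All 5 values moved when 1 library was left out. The value for Mtor was 0.25 and that for Tsc1 -0.21 without fed library 1, where Mtor stood at 19.99 CPM. Prkaa1 was at -0.58 without fed library 3, Lamp1 at -0.045 without fed library 4, and Tmem41b between -0.91 without fasted library 4 and -0.32 without fasted library 1.

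**Figure D4:**
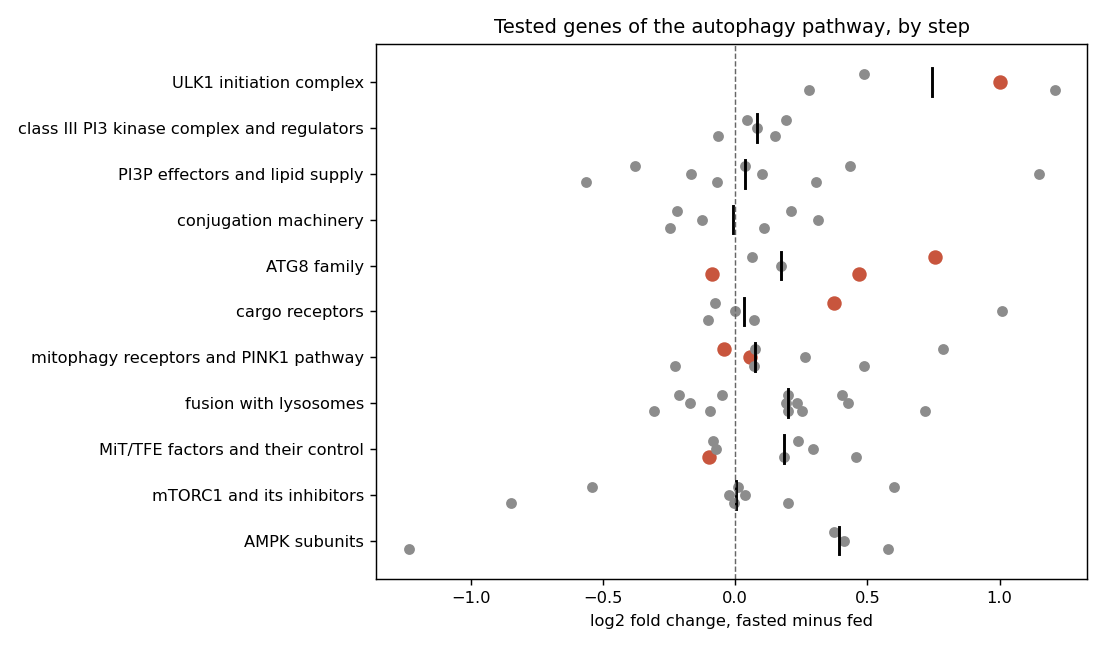
Log2 fold change, fasted minus fed, of the 75 tested pathway genes by step of autophagy; red points are members, black ticks are medians of a step, and the dashed line is the median of all tested genes. All 4 tested genes of the ULK1 complex lie to the right, whereas the conjugation machinery and mTORC1 are centred near 0.

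Some of these loci share sequence with others. Over the last 400 bases of their transcripts, Map1lc3b, Bnip3 and Bnip3l match annotated pseudogenes at 95% identity or more over at least 150 bases, among them Bnip3l-ps at 99.2% over all 400 bases. Exons of Sqstm1, Becn1, Map1lc3b, Gabarapl1 and Bnip3 overlap Mrnip, Cntd1, Zcchc14, 1700101I11Rik and Gm45507 on the opposite strand. Within those last 400 bases Becn1 matched Cntd1, which had 3 counts, at 100% over all 400. Sqstm1 matched Mrnip at 100% over 233 bases, and Bnip3 matched Gm45507 at 100% over 272. The sources used here do not say how such reads were counted or whether strand was used, so the levels of these 6 genes are uncertain to that extent. Ulk1 had no such match or overlap. In mm10, Map1lc3b lies on chromosome 8 at 121590361 to 121598760, Sqstm1 on chromosome 11 at 50199366 to 50210827, Bnip3 on chromosome 7 at 138890836 to 138909519, Bnip3l on chromosome 14 at 66985239 to 67008877 and Tfeb on chromosome 17 at 47737030 to 47792419.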

How the data were processed

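CEL-seq2, a barcoded 3' end method, was applied to Trizol RNA, per the labels' protocols. The deposited values are raw counts per gene; the submitters' processing notes name STAR, edgeR and mm10, without versions, and the sources used here do not give whether reads or molecular identifiers were counted. Each of the 4 sequencing files holds fed and fasted libraries; groups were read from column names, with control taken as fed. Columns 1, 3, 4 and 5 of each treatment were taken. The 2 further columns of per-sample values, number 2 of each treatment, were not used, since the choice of columns named only the others. The 11 ERCC rows (20 counts) were left out.

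The 10 members and all gene lists were chosen with earlier results of these data known. Genes named are the members, the 5 pathway genes of smallest p in each direction, Gabarap and Gabarapl2; Atg13, Atg101, Rb1cc1, Prkab1 and Nrbf2 were added after their values were seen. The table lists Atg101 under an older symbol, and 1 listed gene, Park2, was not analysed here.

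With edgeR 4.0.16 (R 4.3.3), filterByExpr kept 7700 genes, TMM scaled the library sizes, and the robust quasi-likelihood test compared the groups without covariates, two-sided, adjusted by Benjamini-Hochberg over all 7700. SE is the log2 fold change divided by the root of F. Alternatives used DESeq2 1.42.0, limma 3.58.1 and other settings. The test was tested on simulated data. Same-number libraries deviated together over tested genes (correlations of 0.23, 0.14, 0.50 and 0.13 for numbers 1, 3, 4 and 5), all above the 0.1 set for pairing. The main test was unpaired all the same, and the numbers were used as a block in an alternative. The support for pairing is weak: no label explains the numbers, and fasted 5 correlated more with fed 4 (0.22) and fasted 3 with fed 1 (0.20) than with their own numbers. Fed 4 correlated at 0.50 and 0.22 with the acinar-rich fasted 4 and 5 and at -0.40 and -0.32 with the acinar-poor fasted 1 and 3. The part of acinar RNA in these correlations was not tested. Replicates differed beyond sampling noise in every pair within a group (lowest chi-square per gene 13.6). Coordinates are from GENCODE vM21, on the same build; transcript ends were compared with blastn 2.17.0.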

Additional observations from a re-analysis of the deposited data

Results flagged for a closer look

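In 3 of 20 groups of 4 libraries (10 genes in fed and fasted), 1 library stood far from the others by Dixon's criterion. With normally distributed values chance meets it in about 1 of 20 groups. Becn1 stood at 0.342 CPM in fed library 5, from 1 count, below the other fed libraries, and at 3.68 CPM in fasted library 3, from 19 counts, above the other fasted libraries. Wipi1 stood at 1.47 CPM in fasted library 4, from 8 counts, where the other fasted libraries held 1 count in all. All 3 values come from genes with too few counts to be tested, for which that rate of chance need not hold.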

How the results depend on the processing

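No member or pathway gene passed the adjusted threshold of 0.05 in any of the 20 alternatives. Of 159 values of single members 20 turned sign, all for genes near 0 (Bnip3, Bnip3l, Map1lc3a and Tfeb); Ulk1, Map1lc3b, Sqstm1 and Gabarapl1 stayed positive wherever they were fitted, and thinning to the lowest total left Gabarapl1 out. The number of members with an unadjusted p under 0.05 was 2, and 1 with RLE factors, library totals alone, no filter on low counts, DESeq2, the acinar covariate, both acinar-poor fasted libraries left out and marker genes removed; with a library left out it ran from 1 (number 1, 3 or 5 of either group) to 3 (without fasted library 4), and in each case of 1 it was Ulk1. The pathway list had 3 such genes, 5 with limma-voom and from 1 (without fed library 1 or fasted library 3) to 6 (without fasted library 4) with a library left out. Over all genes the adjusted count of 0 was 1 with library totals alone, 1 without a filter and 8 with DESeq2; the unadjusted count of 338 was 919 without a filter, 729 with limma-voom, 535 with the replicate block, and up to 561 (without fasted library 4) and down to 248 (without fasted library 1) with a library left out. The replicate block changed no call of a member.

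Log2 fold changes that turned sign were, with library totals alone, 0.10 for Map1lc3a, 0.66 for Tfeb and 0.30 for Lamp1 (against 0.51 for the median gene); with limma-voom, -0.023 for Bnip3l; with the acinar covariate, 0.31 for Map1lc3a, 0.41 for Bnip3 and -0.036 for Gabarapl2; with both acinar-poor fasted libraries left out, 0.42 for Map1lc3a, 0.58 for Bnip3 and -0.072 for Gabarapl2; and with thinning, -0.23 for Bnip3l. With a library left out the ranges were -0.54 to 0.11 for Map1lc3a, -0.52 to 0.29 for Bnip3, -0.14 to 0.23 for Bnip3l, -0.40 to 0.15 for Tfeb, -0.14 to 0.18 for Gabarap and -0.86 to 0.25 for Mtor. The cause was not tested. The members with the fewest counts over the 8 libraries were Wipi1 (19), Becn1 (80) and Gabarapl1 (311).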

Other observations

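Of the 21 pathway genes with too few counts to be tested, Becn1 was higher and Nrbf2 lower in fasted libraries without overlap. Of all tested genes 3.51% had groups without overlap, and of the tested pathway genes 2 of 75, which is near that background. No such share was computed for genes with too few counts, so Becn1 and Nrbf2 have no background to be set beside. Nrbf2, named here after its values were seen, encodes a subunit that binds the Beclin 1 complex. It had 74 counts in fed and 11 in fasted libraries, at 6.66, 1.21, 3.17 and 2.39 CPM in fed and 0, 0.194, 1.10 and 0.756 CPM in fasted libraries 1, 3, 4 and 5. Fitted without a filter its log2 fold change was -2.60, with a 95% interval from -4.86 to -0.35 (edgeR, unadjusted p = 0.025, Benjamini-Hochberg adjusted p = 0.68). Prkab1, a regulatory subunit of AMPK, was the other tested pathway gene besides Ulk1 whose groups did not overlap, also named after its values were seen, at 5.77 ± 1.33 CPM (fed) and 8.51 ± 1.12 CPM (fasted; SD, n = 4; log2 fold change 0.58 ± 0.37, SE; edgeR, Benjamini-Hochberg adjusted p = 1.00), whereas the catalytic subunit Prkaa1 had a negative value.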
